A study of Mus musculus with 27 samples.

Results

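Late caged food liver is described here: livers of mice that had fasted for 16 h and then spent 120 or 240 min with caged food, meaning food shut in a cage that the animals could sense but not eat. The 6 libraries of these mice (3 at each time) were set against the 3 libraries of mice studied after the fast alone, so that 9 of the 27 libraries of the series carry the comparison. The members were chosen by treatment and time, not by any measured value. The 3 libraries of a group are biological replicates by the design text. All mice were wild type (WT), of the strain given in the labels as C57/BLN6, and every group shared the 16 h fast. The labels name neither sex nor age. For reference, the 6 libraries of 30 and 60 min of caged food are called early caged food, and the 6 libraries of mice refed for 120 or 240 min after the same fast are called late refed. The groups had been without food for unequal times, so caged food, a longer fast and a later hour of the day cannot be told apart in the comparison with fasted liver.

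The fasting liver supplies glucose and ketone bodies to the rest of the body. Falling insulin and rising glucagon and glucocorticoids free the transcription factor FOXO1 and the cAMP pathway to drive gluconeogenic genes, while fatty acids from fat tissue activate PPAR-alpha, which drives fatty acid oxidation and ketogenesis. Feeding reverses this through insulin, which induces lipogenic genes, and raises the load on protein folding in the endoplasmic reticulum (ER).

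Values are normalised read counts, that is, reads per gene that the authors divided by a scaling factor for each library. The spacing of low values put the depth of the 9 libraries at 25.6 to 51.2 M reads each, and replicates 2 and 3 at 240 min of caged food were the shallowest, at 31.2 and 25.6 M. The 10 hepatocyte markers summed to 5104562 to 5858823 in fasted, 5380687 to 6072406 at 120 min and 5107938 to 5326631 at 240 min, and none of them was at 0 in all 9 libraries. No member of these or of the 11 other marker lists had an unadjusted p under 0.05 in the main comparison, and the adipocyte markers summed to at most 17 in any library. In whole tissue, fewer cells of a type and less RNA per cell cannot be told apart. Library 1 at 240 min of caged food bears a treatment label that says refed, and library 3 at 240 min of refeeding bears one that says caged food. Both were grouped by title. On the first principal component of all 27 libraries, the first lay at -20.5, among the caged food libraries, and the second at 37.1, among the refed ones. Library 3 at 120 min of caged food stood apart on the second component, at -15.5.

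No gene was called in late caged food against fasted liver. Of 15932 genes tested with limma on log2 of the value plus 1, 0 passed a Benjamini-Hochberg adjusted p of 0.05 (0% called), and the lowest adjusted p was 0.264. At an unadjusted p under 0.05, 382 genes were higher (2.4%) and 339 lower (2.13%), 4.53% of the genes together. The libraries bounded, gene by gene, the differences that could have gone unseen, with intervals not adjusted for the number of genes. For 13493 genes (84.7%) the 95% interval of the fold change lay within 2-fold in either direction, and for 10631 (66.7%) within 1.5-fold. Among the 5311 genes with a mean of at least 1000, 99.1% had an interval within 2-fold and 95.2% within 1.5-fold. Among the 5063 genes with a mean under 100, those shares were 55% and 13.9%.

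The 30 gene lists, with 568 distinct members tested, gave the same picture. No member of any list was called. The median log2 fold change of the lists ranged from -0.17 to 0.14, beside 0.00 over all genes. At an unadjusted p under 0.05, 18 members were higher and 12 lower, beside 2.4% and 2.13% of all genes. For 505 of the 568 members the 95% interval lay within 2-fold. Of the 45 genes of a panel chosen for their roles in fasting, feeding, the clock and stress, 5 had an unadjusted p under 0.05 and 34 an interval within 2-fold, as the plot of panel genes shows.

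**Figure D1:**
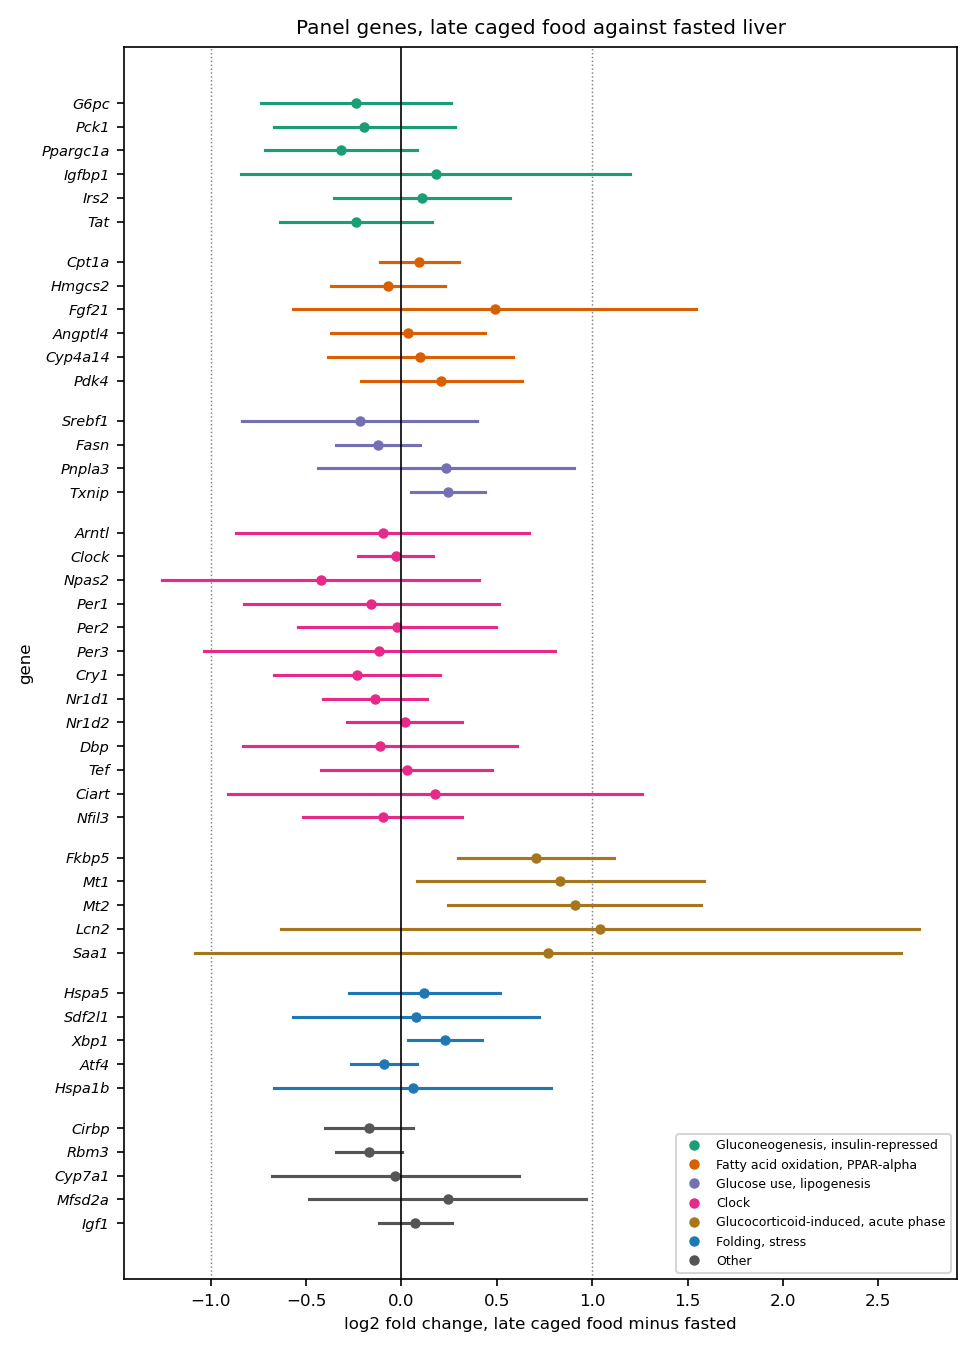
Log2 fold change (x axis) of 44 panel genes in late caged food against fasted liver, with points for the limma estimate and lines for the 95% interval, coloured by role. Dotted lines mark 2-fold. 5 intervals exclude 0 (Fkbp5, Mt1, Mt2, Xbp1 and Txnip), and no gene passed the adjusted test (lowest adjusted p = 0.857).

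Genes that insulin represses showed no called difference. G6pc, the glucose-6-phosphatase that completes glucose release, had 14419, 22279 and 17062 normalised read counts in the fasted libraries, 14955, 12471 and 24227 at 120 min and 13875, 13308 and 13371 at 240 min of caged food. The groups overlapped, and 1 library at 120 min was above all others. The log2 fold change was -0.24 ± 0.24 (SE), with a 95% interval from -0.74 to 0.26. Pck1, which encodes the cytosolic enzyme that makes phosphoenolpyruvate for gluconeogenesis, had 269632 to 345245 counts in fasted liver and 233165 to 305890 in late caged food liver, a log2 fold change of -0.20 ± 0.23 (SE). Igfbp1, an insulin-repressed binding protein of insulin-like growth factors, had 3219, 6147 and 3216 counts in fasted liver, 3252, 4829 and 13448 at 120 min and 3283, 3392 and 3633 at 240 min. The 13448 belonged to the same library that was highest in G6pc, and without that library the log2 fold change of Igfbp1 was -0.11 instead of 0.18. Over the 21 members tested of the list of gluconeogenesis and FOXO1 targets, the median log2 fold change was -0.06, the range -0.32 to 0.23, and 0 members had an unadjusted p under 0.05.

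Genes of fatty acid oxidation and ketogenesis likewise showed no called difference. Cpt1a, the carnitine transferase that admits fatty acids to mitochondria, had 56107, 51180 and 53175 counts in fasted liver, 62439, 67356 and 56430 at 120 min and 53240, 51921 and 52643 at 240 min. All 3 libraries at 120 min lay above the 3 fasted ones and the libraries at 240 min lay among them. Over all genes, 16.1% had the 120 min libraries apart from the fasted ones, above or below. The limma adjusted p of the Cpt1a contrast at 120 min was 0.707. Angptl4, a lipase inhibitor induced by PPAR-alpha and glucocorticoids, had 7668, 6222 and 4377 counts in fasted liver and 4519 to 7538 in late caged food liver, a log2 fold change of 0.03 ± 0.19 (SE). Fgf21, a fasting hormone of the liver, had 334, 183 and 206 counts in fasted liver, 428, 385 and 843 at 120 min and 207, 216 and 196 at 240 min. The 120 min libraries were all above the fasted ones, but the interval of the pooled change ran from -0.57 to 1.54. The list of PPAR-alpha targets, with 39 members tested, had a median of -0.03 and 0 members at an unadjusted p under 0.05.

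Genes that feeding induces had values near those of fasted liver. Fasn, the fatty acid synthase, had 3020 to 3728 counts in fasted and 2773 to 3506 in late caged food liver, a log2 fold change of -0.12 ± 0.11 (SE). Hspa5, the main chaperone of the ER, had 21580, 29690 and 27790 counts in fasted liver and 24097 to 35581 in late caged food liver, with a 95% interval from -0.27 to 0.52. Sdf2l1, a chaperone partner of Hspa5, had 513, 605 and 564 counts against 495 to 768. Xbp1, which encodes a transcription factor of the unfolded protein response, had 8099, 8953 and 8938 counts in fasted liver and 9344 to 10946 in late caged food liver. Its groups did not overlap, its log2 fold change was 0.23 ± 0.09 (SE), and it did not pass the adjusted test (adjusted p = 1). All 6 late libraries lay above the 3 fasted ones in 1.45% of all genes. Over 27 tested genes of ER chaperones, folding and degradation the median was 0.04, and Xbp1 alone had an unadjusted p under 0.05. The 21 tested genes of the cytosolic heat shock response had a median of 0.08. At an unadjusted p under 0.05, 3 members (Hsph1, Hspb8 and Hspe1) were higher, beside 2.4% of all genes.

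The same late caged food libraries differed from late refed liver in 4959 genes (31.1% of those tested), 2616 higher (16.4%) and 2343 lower (14.7%) in refed liver. Time after the 16 h fast was matched in this comparison. Among the 45 panel genes, 11 were higher and 20 lower in late refed liver, and 14 were not called. G6pc was 8.43-fold lower in late refed liver, at 1385 to 2539 counts, with no overlap (log2 fold change -3.08 ± 0.20 SE, limma adjusted p = 8.27e-11). Igfbp1 was 18.1-fold lower, at 125 to 612 counts. Hspa5 was 3.62-fold higher, at 76275 to 149335 counts (log2 fold change 1.86 ± 0.16 SE, limma adjusted p = 4.98e-09). Mfsd2a, a lysophospholipid transporter induced by fasting, had 3505 to 6588 counts in fasted, 3665 to 9157 in late caged food and 242 to 1097 in late refed liver.

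By list, the called members between late refed and late caged food liver were mostly in 1 direction in some lists and mixed in others. Beside them, 16.4% of all genes tested were called higher and 14.7% lower in refed liver. Some counts in the mixed lists were near these shares, and no list was tested as a set. Of 21 members of the gluconeogenesis and FOXO1 list 18 were lower and 0 higher in refed liver. Of 39 members of the PPAR-alpha list 24 were lower and 0 higher, and of 34 genes of amino acid catabolism and the urea cycle 21 were lower and 2 higher. Of 27 ER folding genes 26 were higher and 0 lower, of 34 ribosome biogenesis genes 28 were higher and 0 lower, and of 21 heat shock genes 16 were higher and 0 lower. Of 18 glucocorticoid-induced genes 14 were lower and 0 higher. Among the mixed lists, 5 of 21 bile acid genes were higher and 6 lower, and 5 of 19 liver-secreted hormones were higher and 4 lower. Of 24 genes of ATF4 and the integrated stress response 5 were higher and 8 lower, and of 22 clock genes 3 were higher and 7 lower. The comparison rests on the titles of the 2 libraries with conflicting labels. With both moved to the group of their treatment label, 348 genes were called, and with them and 3 libraries that stood apart left out, 4417 were.

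Fkbp5, Mt1 and Mt2 belong to the list of glucocorticoid-induced genes, and none of them passed the adjusted test. Fkbp5, a co-chaperone of the glucocorticoid receptor that glucocorticoids induce, had 4559, 3113 and 3513 counts in fasted liver, 6568, 7427 and 5600 at 120 min and 3999, 6523 and 6539 at 240 min. Of the late libraries, only library 1 at 240 min, the one with conflicting labels, fell within the fasted range. The log2 fold change was 0.70 ± 0.20 (SE; 95% interval 0.30 to 1.11; limma adjusted p = 0.857). Mt1, a metallothionein that binds zinc and is induced by zinc, glucocorticoids and inflammation, had 7086, 5891 and 5749 counts in fasted liver, 10426, 11356 and 12357 at 120 min and 10652, 14623 and 8073 at 240 min. Mt2, its neighbour on chromosome 8 (GRCm38, 94172664 to 94173568, with Mt1 at 94179082 to 94180327), had 4666, 2516 and 3454 counts, then 5665, 5023 and 5712, then 7103, 9777 and 6364. Every late library was above every fasted one in both metallothionein genes. The log2 fold changes were 0.83 ± 0.36 (SE) for Mt1 and 0.91 ± 0.32 (SE) for Mt2, with an adjusted p of 1 for each. Over all genes, 231 (1.45%) had all 6 late libraries above the 3 fasted ones and 204 (1.28%) had all 6 below.

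The 18 glucocorticoid-induced genes, Lcn2 among them, had a median of 0.14 and a range from -0.24 to 1.04. Fkbp5, Mt1 and Mt2 were the 3 members at an unadjusted p under 0.05, all higher, beside 2.4% of all genes. The list was not tested as a set. Per1, a clock gene that glucocorticoids also induce, had 3118, 3735 and 1955 counts in fasted and 1498 to 4010 in late caged food liver. Lcn2 and Saa1, acute phase genes, varied between single libraries. Lcn2 had 281, 289 and 258 counts in fasted liver, 534, 470 and 452 at 120 min and 619, 1508 and 317 at 240 min, all 6 above the fasted ones, with an interval from -0.63 to 2.71. Saa1, whose reads may be shared with near-identical copies, had 694 to 7898 counts in late caged food liver. The high values of both belonged to library 2 at 240 min, in which the 10 Kupffer cell markers also reached their highest sum, 28548, beside 18011 to 23048 at 120 min and 18165 to 22143 in fasted liver. Their part in the result was not tested.

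Genes outside the lists were looked at after their values were seen. The 2 lowest p-values belonged to Wdr6 and Fuk. Wdr6, a WD-repeat protein (chromosome 9, 108572311 to 108578739), had 651, 675 and 713 counts in fasted liver and 402 to 512 in all 6 late libraries. Its log2 fold change was -0.57 ± 0.11 (SE; limma adjusted p = 0.264). Fuk, the fucose kinase (chromosome 8, 110882456 to 110902488), had 767, 852 and 814 counts against 597 to 685, a log2 fold change of -0.36 ± 0.07 (SE; adjusted p = 0.264). Both groups were apart, the differences were small, and both genes were called when libraries were weighted by their quality. Whamm, a regulator of actin at membranes, was called only when library 1 of the fasted group was left out. Among the lower genes without overlap and with a mean of at least 50, Slc22a7, an organic anion transporter, had the largest fold change. Slc22a7 had 525, 593 and 386 counts in fasted liver, 329, 349 and 32 at 120 min and 366, 279 and 331 at 240 min. The log2 fold change was -1.14 ± 0.52 (SE) and moved to -0.57 without the library at 32. Elovl3, a fatty acid elongase, had 2716 to 3688 counts in fasted and 794 to 2553 in late caged food liver, and Cyp4a12b, a member of a family of close copies, 5838 to 8468 and 3153 to 5562. Neither passed the adjusted test.

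Clock genes showed where 1 library can move the comparison. In the clock of liver cells, the activators ARNTL (BMAL1) and CLOCK or NPAS2 bind E-boxes and drive their own repressors, the Per and Cry genes, as well as Ciart, Dbp and Bhlhe41. DBP, TEF and HLF act on D-boxes, at which NFIL3 represses, and ROR and REV-ERB proteins act on a further element that serves Arntl and Nfil3. Of 22 clock genes, 0 had an unadjusted p under 0.05 in late caged food against fasted liver, and the median log2 fold change was -0.03. Library 3 at 120 min held the highest value of the 6 late libraries for 6 clock genes and the lowest for 13, together 86.4% of the list, against 41.6% of all genes tested.

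Promoter sequences are shown for 3 clock genes that were low or high together in that library, each 250 bases before the transcription start as RefSeq gives it for GRCm38.p6, 5′ to 3′ on the strand of the gene. Capitals mark the motif of each.
Ciart (chr3:95882229-95882478, minus strand; capitals are the E-box CACGTG): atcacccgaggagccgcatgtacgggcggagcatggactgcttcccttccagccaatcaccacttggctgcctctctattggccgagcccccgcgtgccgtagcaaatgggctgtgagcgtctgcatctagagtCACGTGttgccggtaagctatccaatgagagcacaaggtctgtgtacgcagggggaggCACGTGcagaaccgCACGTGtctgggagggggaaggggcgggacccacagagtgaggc
Per3 (chr4:151044666-151044915, minus strand; capitals are the D-box TTATGTAA): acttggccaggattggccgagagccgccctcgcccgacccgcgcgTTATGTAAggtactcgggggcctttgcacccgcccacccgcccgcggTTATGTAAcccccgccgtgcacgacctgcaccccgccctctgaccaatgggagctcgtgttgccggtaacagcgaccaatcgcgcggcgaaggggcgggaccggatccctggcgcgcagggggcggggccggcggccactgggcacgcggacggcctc
Nfil3 (chr13:52981040-52981289, minus strand; capitals are the ROR element TAGGTCA on the other strand): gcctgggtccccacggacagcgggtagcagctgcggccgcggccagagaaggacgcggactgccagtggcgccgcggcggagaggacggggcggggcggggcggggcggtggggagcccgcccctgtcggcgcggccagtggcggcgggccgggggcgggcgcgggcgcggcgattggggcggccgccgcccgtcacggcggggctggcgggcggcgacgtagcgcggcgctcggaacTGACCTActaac

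The Ciart promoter held 3 matches, the Per3 promoter 2 and the Nfil3 promoter 1. Both strands were searched, in windows that also took in 50 bases after the start. Over 32851 such windows of RefSeq genes, 7.15% held an E-box, 1.06% a D-box (TTATGTAA or TTACGTAA) and 2.61% the ROR element. Windows were found for 17 of the 22 clock genes. An E-box lay in a window of 5 of them (Ciart, Bhlhe41, Cry1, Per1 and Tef), a D-box in that of Per3 and the ROR element in those of Arntl and Nfil3. A match is a description of the letters and shows no binding.

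Ciart had 686, 639 and 303 counts in fasted liver, 918, 434 and 133 at 120 min and 867, 1367 and 587 at 240 min. Per3 had 1377, 1497 and 1243 counts, then 1490, 1128 and 292, then 2209, 1672 and 2224. Nfil3 had 823, 874 and 905 counts, then 731, 849 and 1639, then 709, 797 and 488. In each gene library 3 at 120 min was outside the range of the other 8 libraries, low in Ciart and Per3 and high in Nfil3. Dbp, with 3276, 3452 and 3287 counts in fasted liver and 3624 to 4086 in 5 of the late libraries, had 1096 counts there. Without that library the 5 late values of Dbp were all above the 3 fasted ones, and the log2 fold change moved from -0.11 to 0.18. That library was singled out after its values were seen. The share of all genes apart in this way was not counted. Arntl had 1177 counts in that library and 326 to 461 in the other late ones, beside 342, 546 and 659 in fasted liver. Per3 moved from -0.12 to 0.24, Ciart from 0.18 to 0.55 and Arntl from -0.10 to -0.37, and none was called with or without the library. The labels give no time of day, and what sets this library apart was not tested.

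**Figure D2:**
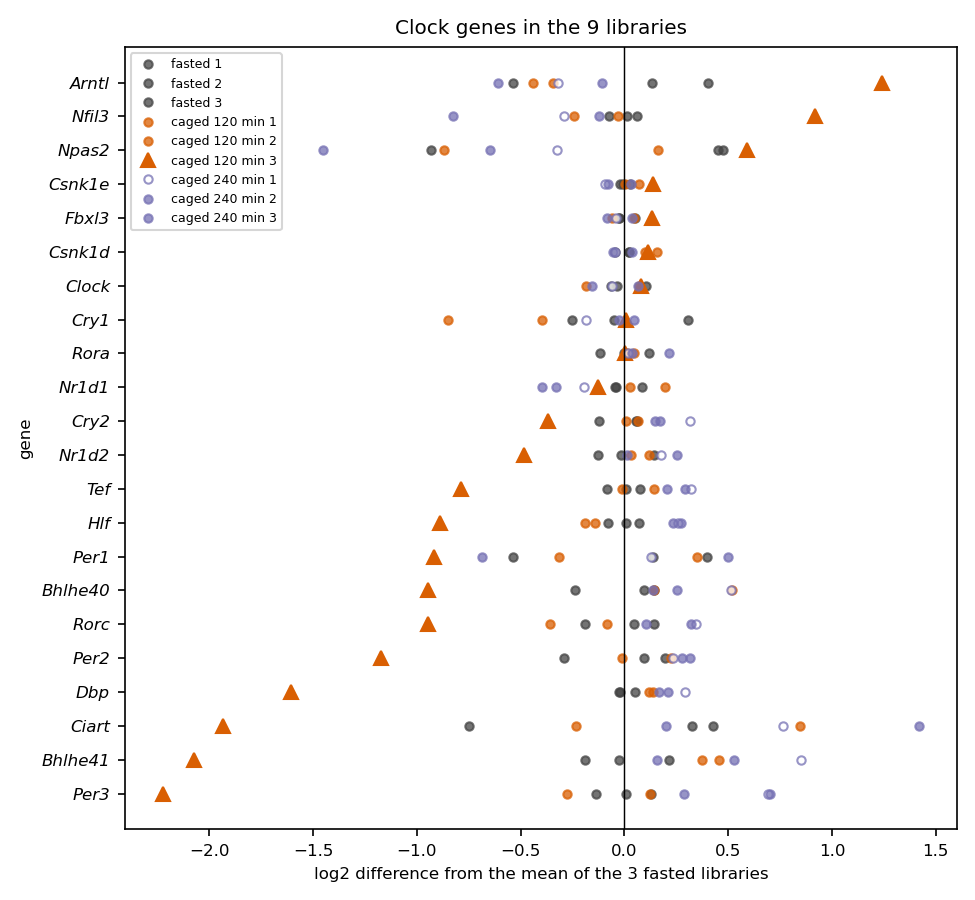
Log2 difference of each library from the mean of the 3 fasted libraries (x axis) for 22 clock genes, ordered by library 3 at 120 min of caged food (triangle). Circles are the other 8 libraries, open for the library with conflicting labels. The triangle lies at the low end for Per3, Bhlhe41, Ciart and Dbp and at the high end for Arntl, Nfil3 and Npas2.

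Some genes differed between the times that the main comparison pools. Between 240 and 120 min of caged food, 39 genes (0.245%) were called, 19 higher (0.119%) and 20 lower (0.126%) at 240 min. Their libraries did not overlap between the times in any of the 39. In 35 of them the 3 libraries at 120 min lay apart from the 3 fasted ones, and in 23 the libraries at 240 min did, beside 16.1% and 13.8% of all genes tested. Those 39 were chosen by a contrast that holds the same libraries, so nothing is read from these counts. Against fasted liver, 6 genes (0.0377%) were called at 120 min and 0 (0%) at 240 min, where 752 genes had an unadjusted p under 0.05.

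Sipa1l2, a regulator of the GTPase Rap, had the largest rise. It had 337, 525 and 351 counts in fasted liver, 182, 165 and 149 at 120 min and 617, 567 and 628 at 240 min. All 3 groups were apart, with 120 min lowest and 240 min highest, and the log2 fold change between the times was 1.87 ± 0.19 (SE, limma adjusted p = 1.13e-05). Tbc1d8, a protein with a Rab GTPase-activating domain, had 1423, 1157 and 910 counts, then 2748, 2709 and 2845, then 921, 1352 and 1006. Its libraries at 120 min were above all fasted ones and all those at 240 min, and 60 min of caged food gave 1335, 2398 and 2115 counts. The time difference was -1.36 ± 0.21 (SE, limma adjusted p = 0.00249). Nr0b2, which encodes the small heterodimer partner that represses bile acid synthesis, had 1242, 1613 and 1364 counts in fasted liver, 1970, 2176 and 1409 at 120 min and 719, 907 and 422 at 240 min. Its libraries at 240 min were below all others (-1.48 ± 0.28 SE, adjusted p = 0.0186). Cyp7a1, the rate-limiting enzyme of bile acid synthesis, was not called, with 9037 to 13107 counts in fasted, 5990 to 10636 at 120 min and 11317 to 13381 at 240 min.

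Of the other named genes that were lower at 240 min, Tfrc, the transferrin receptor, had 1573 to 2225 counts in fasted liver, 2044 to 3393 at 120 min and 1013 to 1254 at 240 min. The 7 erythroid markers summed to 5419 to 11826 at 120 min and 5108 to 8034 at 240 min, and their part in this was not tested. Epha2, an ephrin receptor, had 1037 to 1375 counts in fasted liver, 2249 to 2689 at 120 min and 961 to 1232 at 240 min. Hes1, a transcriptional repressor downstream of Notch, had 297 to 439, then 480 to 943, then 310 to 380. In both, every library at 120 min was above every fasted one and every one at 240 min. Nop58, a core protein of the particles that modify ribosomal RNA, had 820 to 924 counts in fasted liver, 1066 to 1404 at 120 min and 674 to 839 at 240 min, and was the 1 ribosome biogenesis gene of 34 that was called. At an unadjusted p under 0.05, 18 of the 34 were lower at 240 than at 120 min and 1 higher, beside 11.3% of all genes. At 120 min against fasted liver 13 were higher and 0 lower, beside 7.7% of all genes. Both contrasts hold the 120 min libraries, and the list was not tested as a set.

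Of the genes that were higher at 240 min, Ahr, the receptor for dioxin-like ligands, had 2694, 3082 and 2627 counts in fasted liver, 1743, 1848 and 1740 at 120 min and 2520, 2862 and 2214 at 240 min. Its libraries at 120 min were below all fasted ones and all those at 240 min, and it was called both there against fasted liver (log2 fold change -0.65 ± 0.11 SE, limma adjusted p = 0.014) and between the times. Lrch1, a leucine-rich repeat protein, had 496 to 572, then 347 to 368, then 559 to 603 counts. Rnf152, a lysosomal ubiquitin ligase, had 1557 to 1781, then 880 to 1194, then 1707 to 2386. Plekha7, a junction protein, had 555 to 711, then 382 to 477, then 782 to 832, and Lyst, a regulator of lysosome traffic, 1738 to 2638, then 1191 to 1453, then 2115 to 2646. Lingo4 was weakly expressed, at 13 to 54 counts. Arid3a, a DNA-binding protein, was the other gene besides Tbc1d8 to rise at 120 min against fasted liver, with 108 to 121 counts in fasted and 206 to 276 at 120 min, and Nlrp5-ps, a pseudogene, fell there with Sipa1l2, Ahr and Lrch1.

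The calls between the times depended on single libraries. Without library 1 at 240 min 6 genes were called in place of 39, and 10 were called without library 3 at 120 min, 9 without library 3 at 240 min and 16 without library 2 at 120 min. With the 5 libraries in doubt (the 2 with conflicting labels and 3 caged food libraries that stood apart) left out, 3 genes were called (Sipa1l2, Lrch1 and Tln2). Of the 6 calls at 120 min, 0 were made without library 2 of the fasted group or without library 3 at 120 min. All 10 genes named for size kept their direction in each of these settings. They were chosen for libraries that did not overlap, so leaving libraries out could not change it.

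**Figure D3:**
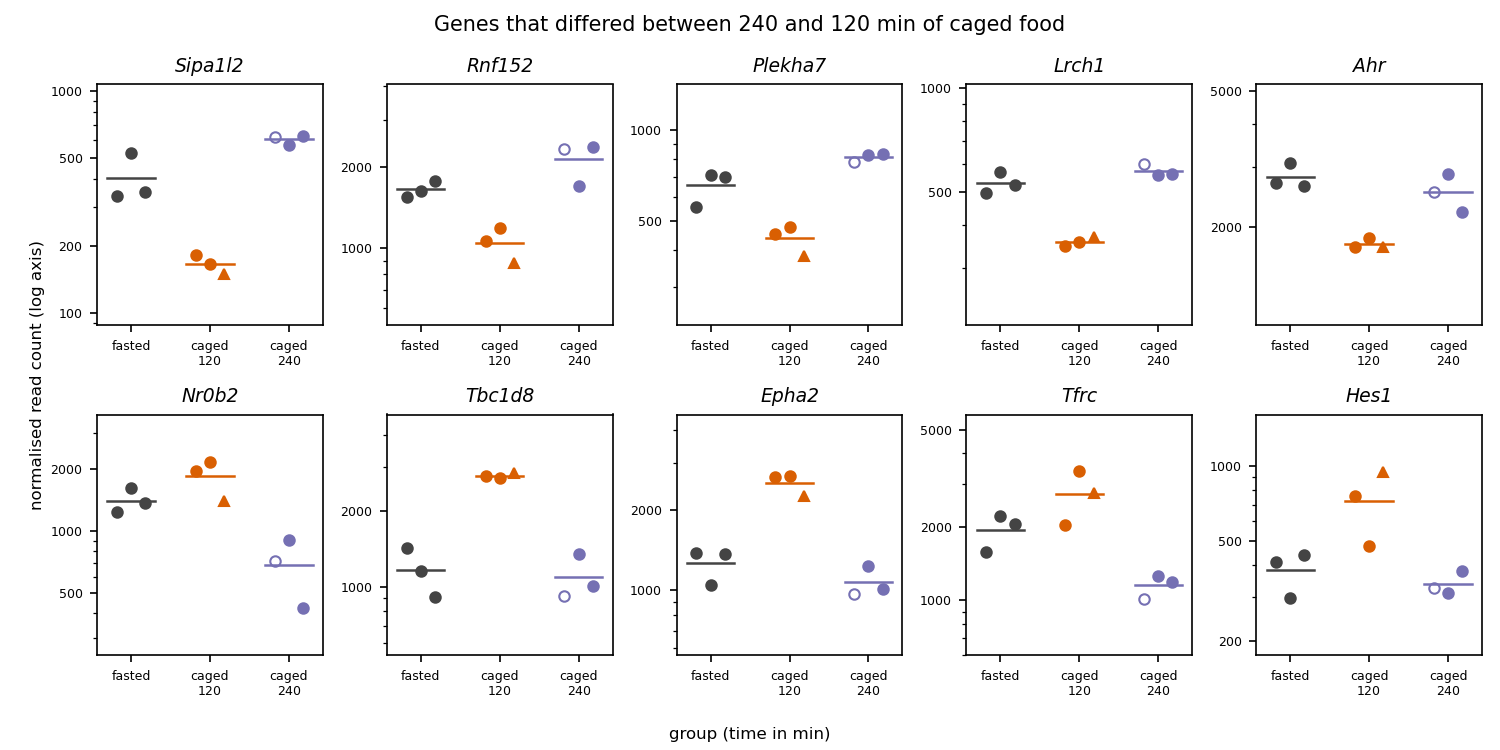
Normalised read counts (log axis) in each library of fasted, 120 min and 240 min caged food liver for 10 genes called between 240 and 120 min, with lines at group means. Symbols are as in the plot of fasting genes. The 120 min libraries lie below both other groups in the upper row, and above the 240 min libraries in the lower row.

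Between late and early caged food, 300 genes (1.88%) were called, 157 higher (0.985%) and 143 lower (0.898%) in late liver. Time with caged food and length of fast move together here. Ppp1r10, a nuclear regulatory subunit of protein phosphatase 1, had 1501 to 3335 counts in the 6 early libraries, 535 to 818 in the 6 late ones and 1199, 798 and 897 in fasted liver. Its early libraries were above all others, and it was 2.97-fold lower in late than in early liver (log2 fold change -1.57 ± 0.13 SE, limma adjusted p = 2.39e-07). Hhex, a homeobox factor of the hepatocyte, had 3021 to 5853 counts in early, 998 to 2911 in late and 1817 to 3296 in fasted liver (-1.28 ± 0.16 SE, adjusted p = 0.00015). Hsd3b5, a steroid dehydrogenase typical of male mouse liver and a member of a family of close copies, had 662 to 1194 counts in early, 123 to 539 in late and 451 to 856 in fasted liver, and 1019 to 3802 in late refed liver.

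Immediate early genes respond to a stimulus within minutes. Of the 30 lists, theirs had most lower calls in late liver, 4 of 29 tested (Klf2, Klf4, Klf6 and Btg1). The list had 0 higher calls, beside 0.898% of all genes lower and 0.985% higher. At an unadjusted p under 0.05, 8 of the 29 were lower and 2 higher, beside 15.4% of all genes in either direction. The list was singled out by its count and was not tested as a set. Btg1, an antiproliferative gene, had 1103 to 1395 counts in early, 638 to 1201 in late and 801 to 933 in fasted liver. Klf2, a transcription factor of endothelium and immune cells, had 417 to 652 counts in early, 212 to 473 in late and 290 to 461 in fasted liver. Tsc22d3, a glucocorticoid-induced regulator, fell as well, with 5396 to 8531 counts in early, 2020 to 6444 in late and 3123 to 4619 in fasted liver. Cyp1a2, an AHR target, had 8728 to 14617 in early and 4167 to 11192 in late liver. Ahr was also called lower (2438 to 3521 and 1740 to 2862), with its lowest late values at 120 min. Cyp1a1, of the same gene list, did not reach an unadjusted p under 0.05. A link between these genes was not tested. Rbm3, a cold-inducible RNA-binding protein, had 647 to 797 counts in early, 476 to 562 in late and 562 to 618 in fasted liver (-0.48 ± 0.07 SE, adjusted p = 0.000507).

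Among the genes that were higher in late than in early liver, Smad9, a signal transducer of bone morphogenetic proteins, had 454 to 625 counts in early, 721 to 1251 in late and 485 to 930 in fasted liver. Rasl11b, a small GTPase, had 128 to 172, 226 to 333 and 210 to 295. Irf1, an interferon-induced factor, had 1294 to 1595, 1838 to 2178 and 1626 to 1989. G0s2, an inhibitor of the lipase that starts triglyceride breakdown, had 1026 to 4512, 3925 to 9339 and 3980 to 4904. In these 4 genes the fasted values reached into the late range. BC048644, Zfp941 and Fam110c had the other large rises, at 55 to 109, 17 to 46 and 49 to 71 counts in early liver and 141 to 213, 52 to 65 and 83 to 138 in late liver. Sftpa1 and Rasd1 were lower in late liver, at 48 to 112 and 15 to 53 counts.

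**Figure D4:**
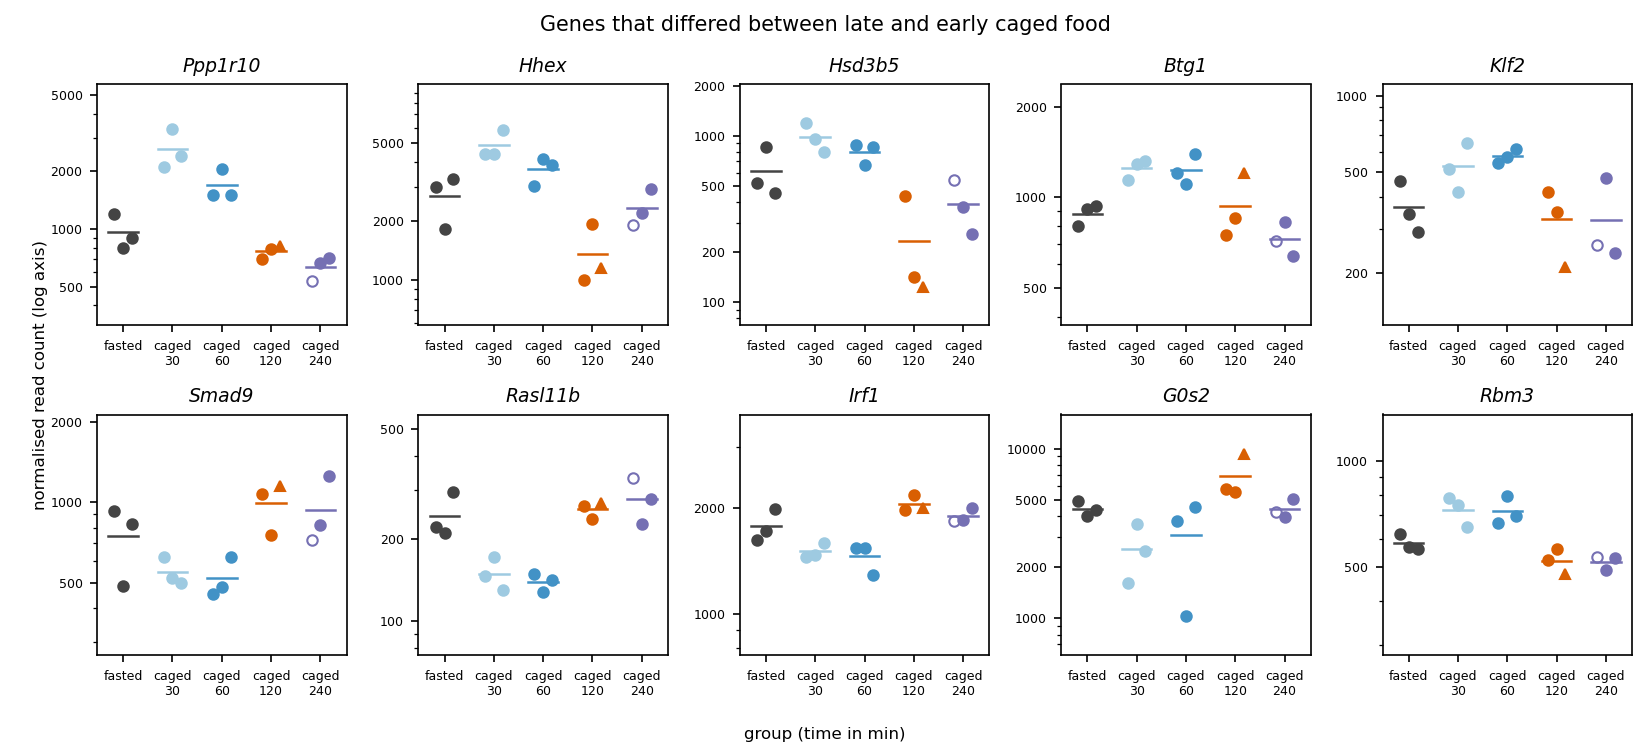
Normalised read counts (log axis) in each library of fasted and caged food liver at 30, 60, 120 and 240 min for 10 genes called between late and early caged food, with lines at group means. Symbols are as in the plot of fasting genes. In Ppp1r10 all early libraries lie above all late and fasted ones, and in Rasl11b and Irf1 all lie below.

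The number of calls between late and early liver was 176 without library 1 at 240 min and 183 without library 3 at 240 min. With the libraries in doubt left out, among them 1 at 30 min and 1 at 60 min of caged food that stood apart, 84 genes were called. All 10 genes named for size in this comparison kept their direction. They were chosen for libraries that did not overlap, so leaving libraries out could not change it. Of the 10, 3 were still called.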

How the data were processed

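Polyadenylated liver RNA was sequenced from stranded mRNA libraries, per the labels. The deposited table holds a score per gene and library: read counts that the authors divided by 1 factor per library and rounded, with the scaling method not given in the sources used here. Per the submitters' processing notes, reads were aligned to mm10 (GRCm38) with STAR 2.4.0a and counted with featureCounts 1.4.5-p1 of Subread. As the values are not raw counts, no count model was used.

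Depth was estimated from the spacing of low values. The search for the value of 1 read was given a higher lower limit after 2 libraries had fallen on an implausible solution.

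Testing was on log2 of the value plus 1 and covered genes that reached 10 in 3 or more of 27 libraries. The trend model of limma 3.58.1 (R 4.3.3) had a mean for each of 9 groups, with Benjamini-Hochberg adjustment over the 15932 genes within each of 6 comparisons and a call at an adjusted p under 0.05. Late caged food was the mean of the groups at 120 and 240 min. The 95% intervals came from the moderated standard errors. The test was checked on simulated data. Named genes were the 45 panel genes and, from the calls between 240 and 120 min and between late and early caged food, the 5 largest rises and falls that did not overlap and averaged 50 or more on the higher side. The rule named 0 genes for size in the main comparison. A result for 1 panel gene is not reported here. Other genes named were chosen after their values were seen. The members, lists and panel were chosen with earlier results of these data known. Replicate numbers were not taken to pair libraries. Gene positions are those of GENCODE M21. Results were recomputed with a replicate block, quantile normalization, 5 as pseudocount, no filter on low values, only the groups compared, quality weights, grouping by treatment label and each library left out, and, added after seeing the data, leaving out 5 libraries in doubt.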

Additional observations from a re-analysis of the deposited data

Results flagged for a closer look

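Of 92 named genes, 16 had 1 of the 6 late caged food libraries far from the others on the log2 scale, by the ratio of its gap to the whole range (critical value 0.625 for 6 libraries). Chance gives about 1 in 20 for a gene chosen without regard to its values. Some of the 92 were chosen after their values were seen, and the clock genes among them are not independent. The count is therefore not compared with that rate. In 14 of the 16 the library was number 3 at 120 min. The ratio was 0.726 for G6pc (24227 counts), 0.722 for Igfbp1 (13448 counts) and 0.73 for Arntl (1177 counts), all high. It was low with a ratio of 0.909 for Dbp (1096 counts), 0.778 for Per2 (460 counts), 0.665 for Per3 (292 counts), 0.675 for Nr1d2 (2259 counts), 0.701 for Tef (6218 counts) and 0.762 for Bhlhe41 (53 counts). The same library was low with a ratio of 0.888 for Slc22a7 (32 counts), 0.639 for Elovl3 (794 counts) and 0.686 for Sema5b (42 counts), and high with 0.627 for Fam46c (574 counts) and 0.771 for Fam71e1 (87 counts). For Saa1 the library was number 2 at 240 min, high with a ratio of 0.669 (7898 counts). For Sftpa1 it was number 2 at 120 min, low with a ratio of 0.631 (48 counts).

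In 14 named genes the difference from fasted liver at 240 min was unlike that at 120 min. The fasted libraries cancel in this difference, so it is the same contrast as 240 against 120 min, from which some of these genes were named for their size, and it adds no result to that comparison. The log2 difference was 1.87 for Sipa1l2, 1.37 for Lingo4, 1.03 for Rnf152, 0.93 for Lyst, 0.90 for Plekha7, 0.68 for Lrch1 and 0.50 for Ahr. It was -1.48 for Nr0b2, -1.36 for Tbc1d8, -1.25 for Epha2, -1.22 for Tfrc, -1.05 for Hes1, -0.73 for Nop58 and -0.56 for Tln2.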

How the results depend on the processing

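The absence of calls in late caged food against fasted liver held in 16 of 18 alternatives. With quality weights 2 genes were called (both lower), and with each library left out in turn 0 to 1 (lower). None of the 30 gene lists had a called member in any alternative, and the lowest adjusted p of a panel gene was 0.138. Of 1656 alternative values of named genes, 77 had the other sign than the value reported, all uncalled, and 3 were called (Wdr6, Fuk and Whamm). At 120 min against fasted liver 6 calls became 0 with only the groups compared, 0 with groups by the treatment label, 0 without the libraries in doubt, 121 with quality weights and 0 to 9 with each library left out. At 240 min 0 calls became 1 without a filter and 1 with groups by the treatment label. Between 240 and 120 min 39 calls became 24 with the replicate block, 11 with only the groups compared, 188 with quality weights, 18 with groups by the treatment label, 3 without the libraries in doubt and 6 to 34 with each library left out. Between late and early caged food 300 calls became 130 with only the groups compared, 531 with quality weights, 138 with groups by the treatment label, 84 without the libraries in doubt and 176 to 318 with each library left out. Between late refed and late caged food 4959 calls became 348 with groups by the treatment label and 4203 to 4766 with each library left out. The cause was not tested in any of these.

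Residuals of libraries with the same replicate number correlated at -0.0676 to 0.0335 among the fasted and late caged food groups. Libraries with unlike numbers were not set beside these, so whether the numbers pair the libraries was not tested. The replicate block gave 6, 24, 277 and 4795 calls in the comparisons that had any.

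The median standard error of the log2 fold change was 0.34 for genes with a mean under 100 and 0.08 for genes with a mean of at least 1000. A p that missed the threshold does not show that a gene was equal in the groups.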
